A study of Mus musculus with 100 samples.

Results

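A set of 10 genes that mark astrocytes and radial glia was followed through 37 RNA libraries of a study of MLL3 and MLL4. These enzymes methylate lysine 4 of histone H3 and are made from the genes Kmt2c and Kmt2d. The members are Slc1a2, Slc1a3, Aqp4, Gja1, Gfap, S100b, Aldh1l1, Aldoc, Fabp7 and Cspg4, taken by name, and they are 10 of the 23109 gene-level entries of the tables. All 10 were present in all 37 RNA tables, which fall into 18 groups: 3 groups of 1 library, 11 of 2 and 4 of 3. All cultured cells were Mll3-/-. The flox cells also carried Mll4flox/flox and the KI cells Mll4KI/KI, in clones 27 and 48. Both cell types were sampled as embryonic stem cells (ESCs), as embryoid bodies (EBs, aggregates left to differentiate in suspension) at days 4 and 10, and in a neural protocol at days 8 and 16. They were also sampled as trophectoderm (TE) cultures at day 6, driven by a doxycycline-inducible CDX2 transgene, and as extraembryonic endoderm (ExEn) cultures after 5 days in medium with retinoic acid and activin A. Embryos at E8.5 and E9.5 were Mll3flox/KI;Mll4flox/KI;Sox2-Cre (KI) or Mll3flox/KI;Mll4flox/+;Sox2-Cre (control), so both kinds carry Sox2-Cre and an Mll3 KI allele. Sox2-Cre acts in the epiblast and its descendants. The labels do not spell out KI. They also do not say whether replicates came from separate cultures, so p-values may measure technical spread only.

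Radial glia are the progenitors of the developing neural tube. They make neurons first and astrocytes later, and they already hold several proteins that astrocytes keep, among them glutamate transporters and the fatty acid binding protein FABP7. Astrocytes clear glutamate from synapses, couple to each other through gap junctions, control water at their endfeet, and build an intermediate filament of GFAP. The switch from making neurons to making astrocytes is known to involve nuclear factor I proteins, Notch signalling, and the JAK-STAT pathway downstream of LIF family cytokines.

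Promoter sequence is shown for Gfap, Slc1a3 and Aldoc because they are the members whose windows hold the STAT motif. They are 3 of the 5 members that were lower in KI than in flox neural cultures at day 16 (values below). Aldoc had the smallest log2 difference of the 5 (-0.46), and its call depended on single libraries. Any part of the motif in these differences was not tested. The window of Gja1 does not hold the motif, and no window of Aqp4 was used here. The sequences are from RefSeq on GRCm38.p6 and run 5′ to 3′ on the gene's strand, from 250 bases before the annotated start to 20 bases after it. Capitals mark each match to TTCNNNGAA, the palindromic core that STAT proteins bind. The Gfap window is chr11:102897181-102897450 (minus strand), that of Slc1a3 chr15:8710788-8711057 (minus strand), and that of the second annotated Aldoc start chr11:78323948-78324217 (plus strand).
Gfap: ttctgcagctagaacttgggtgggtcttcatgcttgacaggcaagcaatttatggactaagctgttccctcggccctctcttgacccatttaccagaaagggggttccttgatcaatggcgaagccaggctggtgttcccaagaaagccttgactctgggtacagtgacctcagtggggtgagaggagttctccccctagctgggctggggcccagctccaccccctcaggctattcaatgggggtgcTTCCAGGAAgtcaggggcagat
Slc1a3: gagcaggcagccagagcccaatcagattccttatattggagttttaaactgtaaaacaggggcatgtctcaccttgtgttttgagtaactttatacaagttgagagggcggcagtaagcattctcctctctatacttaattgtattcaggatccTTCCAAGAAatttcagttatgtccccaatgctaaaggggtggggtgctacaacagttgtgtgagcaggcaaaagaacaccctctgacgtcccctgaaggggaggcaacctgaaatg
Aldoc: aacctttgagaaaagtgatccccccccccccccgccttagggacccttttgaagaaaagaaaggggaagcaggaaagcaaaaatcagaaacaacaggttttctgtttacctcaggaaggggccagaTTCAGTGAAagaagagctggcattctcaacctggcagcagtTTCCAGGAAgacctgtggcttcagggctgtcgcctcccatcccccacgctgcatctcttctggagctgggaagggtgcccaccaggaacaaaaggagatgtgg
The matches begin 2 bases before the start in Gfap, 96 before it in Slc1a3, and 124 and 83 before it in Aldoc.

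Windows of 300 bases (250 before to 50 after a start) were used for 9 members (all but Aqp4) in 10 windows, and motifs were searched on both strands. TTCNNNGAA was present in 3 of the 10 windows, against 8.30% of all 32851 windows. The windows of the other 6 members do not hold these letters. TGGGAA, the core of the Notch effector RBPJ, was in 6 of the 10 windows, against 25.6% of all windows. These belong to 5 members (Aldh1l1, Aldoc, Fabp7, Gfap and S100b). TTGGC, the core of nuclear factor I sites, was in 5 of the 10 windows (Aldoc, Cspg4, Fabp7, S100b and Slc1a2), against 46.7%. The full nuclear factor I palindrome was in none of the 10 windows and in 0.0365% of all windows. The SOX motif ACAAT was in 4 of the 10 windows, against 31.0%, and the E-box CANNTG in 7, against 72.3%. An E-box or another short motif may share letters with a longer one. CpG counts ran from 1 in Slc1a2 to 17 in Cspg4, with 3 each in Gfap, Slc1a3, S100b and the second Aldoc window, against a median of 7 over all windows. These matches describe letters only, and no binding data were used here.

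Values below are CPM (counts-per-million) of gene-level reads after TMM scaling within each set of libraries. Gene-level totals ran from 39.0 to 59.9 M reads in the neural libraries and from 18.9 to 27.6 M elsewhere, so that the limit a count of 0 allows (3 reads) is 0.05 to 0.077 CPM in the neural libraries and up to 0.159 elsewhere. Intervals and limits cover counting error only. A gene is termed called where edgeR's quasi-likelihood test gave a Benjamini-Hochberg adjusted p under 0.05 over all genes of the comparison. Where libraries are said not to overlap, the share of all genes without overlap was not counted. The neural cultures carried the markers their labels imply. Pax6, a radial glia transcription factor, lay between 102 and 130 CPM at day 8 and between 7.73 and 10.5 at day 16, and Tubb3, a neuronal tubulin, between 415 and 548 at day 8 and between 729 and 1770 at day 16. Kmt2c and Kmt2d were not called between KI and flox at either day (Kmt2c 57.5 to 65.1 CPM at day 8 and 88.1 to 101 at day 16), and reads over a gene do not check an allele change within it.

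In flox cultures 8 of the 9 members tested rose between day 8 and day 16 of the neural protocol, and 1 fell. The background was high: 77.1% of all genes tested were called, 38.4% higher and 38.7% lower. Other marker genes moved as well. Neuronal genes were higher for 10 and lower for 1 of 12, and cell cycle genes lower for 10 of 10. Fibroblast genes were higher for 10 and lower for 0 of 12. Their sum was 513 to 520 CPM at day 8 and 4640 to 4870 at day 16. Radial glia and progenitor genes were higher for 3 and lower for 12 of 16. The part of other cell types in the members' changes was not tested. Fabp7, which carries fatty acids and is a classic radial glia marker, was the most abundant member per length at both days, with a mean RPKM of 88.6 at day 8 and 300 at day 16. The day 16 order in flox went on with Aldoc (106 RPKM), Slc1a3 (30.1), Aldh1l1 (19.2), Slc1a2 (7.90), Gja1 (7.36) and Gfap (5.99). Slc1a2 (7.22 and 8.58), Gja1 (6.78 and 7.95) and Gfap (5.33 and 6.65) are neighbours in that order: the first pair overlap, and the lowest Gja1 library is close to the highest Gfap library. Cspg4 (0.622), Aqp4 (0.0739) and S100b (0.0613) were far lower.

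**Figure D1:**
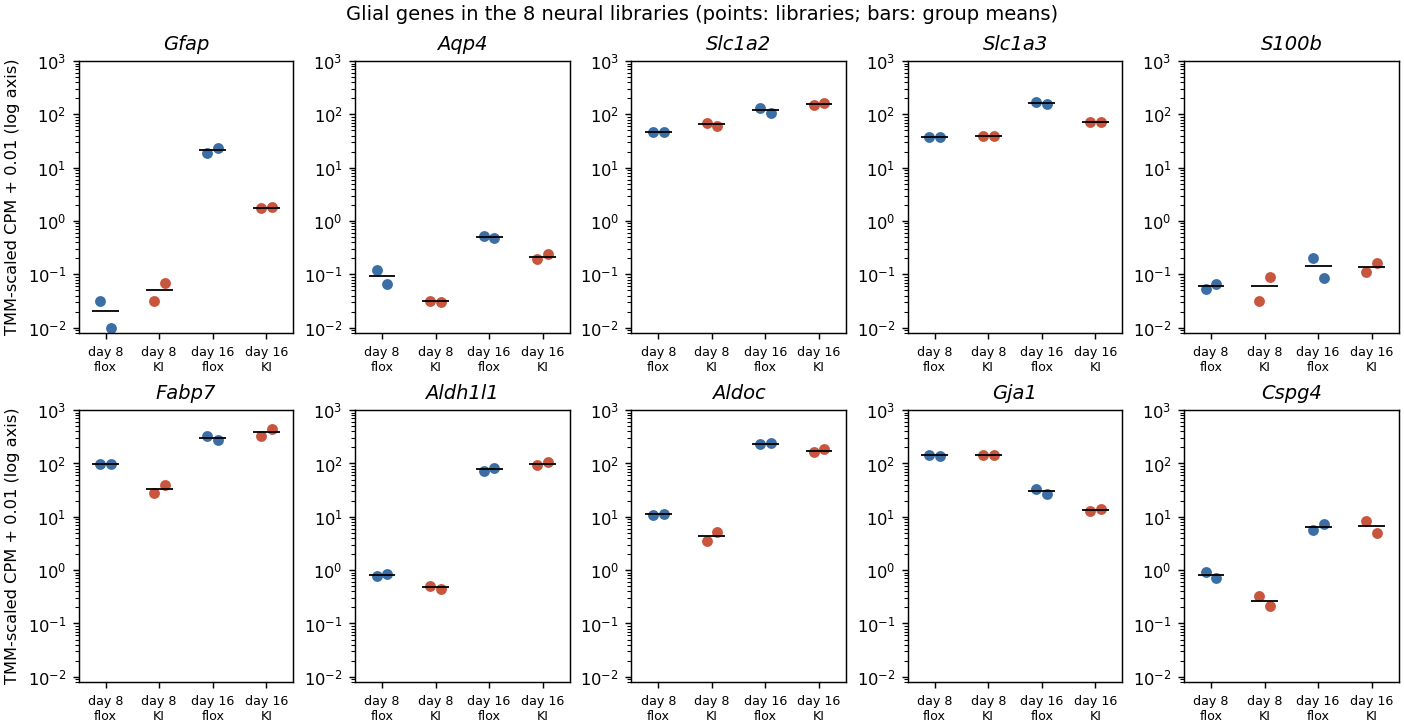
TMM-scaled CPM plus 0.01 (log axis) of the 10 genes in the 8 neural libraries, with 1 point per library and a bar at each group mean. Gfap at day 16 sits at 19.2 and 23.4 in flox and at 1.71 and 1.82 in KI, while Gja1 is the member that is lower at day 16 than at day 8.

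Gfap, the intermediate filament of mature astrocytes, had 1 and 0 reads in the flox libraries at day 8 and 1093 and 937 reads (19.2 and 23.4 CPM) at day 16. The ratio of the summed reads, scaled by library size, was 2080, with an exact 95% interval from 373 to 82200 that the single day 8 read sets. Aldh1l1, a folate enzyme used as a pan-astrocyte marker, went from 0.769 and 0.854 CPM to 73.2 and 82.1, a log2 change of 6.57 ± 0.15 (SE). Aldoc, the brain aldolase of glycolysis, went from 10.6 and 11.5 to 229 and 245 CPM, a log2 change of 4.42 ± 0.16. No day 8 library reached any day 16 library for these 3 genes.

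Cspg4, the NG2 proteoglycan of oligodendrocyte precursors and pericytes, rose from 0.901 and 0.687 to 5.72 and 7.38 CPM (log2 change 3.04 ± 0.28). Aqp4, the water channel of astrocyte endfeet, rose from 0.110 and 0.0557 CPM (5 and 3 reads) to 0.509 and 0.475 (29 and 19 reads). The glutamate transporters Slc1a3 (GLAST) and Slc1a2 (GLT-1) rose by 2.12 ± 0.09 and 1.36 ± 0.11 on the log2 scale, and Fabp7 by 1.60 ± 0.18. Gja1, the gap junction protein connexin 43, went the other way, from 144 and 139 CPM to 32.7 and 27.3, a log2 change of -2.24 ± 0.10. Adjusted p-values of these 9 members in edgeR's quasi-likelihood test ran from 6.71e-12 (Aldh1l1) to 0.000178 (Aqp4). S100b, a calcium binding protein of mature astrocytes, held 2 and 3 reads at day 8 and 11 and 3 at day 16 and was not tested in any comparison because of its low counts.

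KI cultures went through the same period with the same 9 members called in the same directions. Of all genes, 79.9% were called (40.7% higher and 39.2% lower). Neuronal genes were higher for 11 and lower for 1 of 12, and cell cycle genes lower for 10 of 10. Fibroblast genes were higher for 8 and lower for 1 of 12, and radial glia and progenitor genes higher for 3 and lower for 12 of 16. Gfap held 1 and 3 reads at day 8 and 84 and 96 (1.71 and 1.82 CPM) at day 16, a ratio of 42.0 with an exact 95% interval from 16.1 to 156. Slc1a3 rose from 39.5 and 39.4 to 71.3 and 72.8 CPM, a log2 change of 0.87 ± 0.08 against 2.12 in flox. Aldh1l1 (log2 change 7.74 ± 0.16), Aldoc (5.29 ± 0.17), Cspg4 (4.69 ± 0.34) and Fabp7 (3.51 ± 0.20) started from lower day 8 levels than in flox. Gja1 dropped from 145 and 146 to 13.0 and 14.2 CPM (-3.42 ± 0.11).

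At day 8 Fabp7, Aldoc, Cspg4 and Aldh1l1 were lower in KI than in flox, Slc1a2 was higher, and Slc1a3 and Gja1 were not called. Of the 9 members tested, 5 were called, beside 19.5% of all genes. Higher in KI was 1 (background 6.30%), and lower were 4 (background 13.2%). The median log2 difference of the 9 was -0.81, and that of all genes tested was 0.005.

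Fabp7 had 98.3 and 99.4 CPM in flox and 27.5 (clone 27) and 40.2 (clone 48) in KI at day 8. Both KI libraries were under both flox libraries, a log2 difference of -1.55 ± 0.19 (adjusted p = 0.000173, edgeR's quasi-likelihood test). Aldoc had 10.6 and 11.5 CPM in flox and 3.51 and 5.29 in KI, again without overlap (log2 difference -1.32 ± 0.16, adjusted p = 8.22e-05). Cspg4, at 0.901 and 0.687 CPM in flox, was at 0.311 and 0.200 in KI (-1.63 ± 0.42, adjusted p = 0.016). Aldh1l1 was at 0.769 and 0.854 against 0.488 and 0.439 CPM (-0.81 ± 0.24, adjusted p = 0.0314). Slc1a2 was the member that was higher, with 47.4 and 46.3 CPM in flox and 70.0 and 61.7 in KI (0.49 ± 0.11, adjusted p = 0.00705).

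Slc1a3 at day 8 had 38.0 and 38.3 CPM in flox and 39.5 and 39.4 in KI, a log2 difference of 0.05 ± 0.08 (adjusted p = 0.788, edgeR). Gja1 had 144 and 139 against 145 and 146 CPM, the KI libraries just above the flox libraries (log2 difference 0.04 ± 0.10, not called). Gfap held at most 3 reads in any of the 4 libraries, which is at or under the limit of a count of 0, so no fold is given. Aqp4 held 5 and 3 reads in flox and 1 and 1 in KI, and this difference was not called (adjusted p = 0.185). Calls of the low or small differences rested on single libraries: Aldh1l1 was not called when any 1 of the 4 libraries was left out (adjusted p 0.0668 to 0.185). Cspg4 was not called without flox 1 (adjusted p = 0.0675), KI 27 (0.0611) or KI 48 (0.174), and Slc1a2 was not called without flox 2 (0.0697) or KI 27 (0.0812). Fabp7 and Aldoc were called under every alternative run.

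At day 16 Gfap, Aqp4, Slc1a3 and Gja1 were the members that stood farthest below flox in KI, while the most abundant member, Fabp7, was not called. Of the 9 members tested 7 were called, beside 46.9% of all genes. Higher in KI were 2 (background 27.1%) and lower were 5 (background 19.7%). The median log2 difference of the 9 was -0.46, and that of all genes 0.09. With library totals in place of TMM scaling, the all-gene median moved to -0.12, and the share of called genes that were higher fell from 57.9% to 30.1%. The calls of Slc1a2 and Aldh1l1 were lost with that scaling (values below).

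Gfap had 19.2 and 23.4 CPM in flox and 1.71 and 1.82 in KI at day 16. Both KI libraries were far under both flox libraries, 12.0-fold lower (log2 difference -3.59 ± 0.18, adjusted p = 4.69e-08, edgeR's quasi-likelihood test). Both annotated Gfap transcripts showed it: NM_001131020 had 9.20 and 13.1 CPM in flox and 0.917 and 1.06 in KI. Reads may be counted for both transcripts, so they were not taken as independent measurements. Under the alternatives run the Gfap difference ranged from -3.79 to -3.44.

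Slc1a3 had 174 and 158 CPM in flox and 71.3 and 72.8 in KI at day 16, 2.31-fold lower (log2 difference -1.21 ± 0.08, adjusted p = 5.37e-07, edgeR). Its partner Slc1a2 did not follow: 132 and 108 CPM in flox and 149 and 162 in KI, 1.30-fold higher (0.38 ± 0.11, adjusted p = 0.0136). The small rise of Slc1a2 was not called on library totals (0.17, adjusted p = 0.235), in a fit of only the 4 day 16 libraries (0.28, adjusted p = 0.0956), without flox 2 (0.25, adjusted p = 0.0846) or without KI 48 (0.32, adjusted p = 0.0747). Deposited RPKM values of Slc1a2 overlapped, at 8.58 and 7.22 in flox and 8.17 and 8.93 in KI. Another Slc1a2 transcript, NM_001077515, for which the same reads may have been counted, gave 126 and 100 CPM in flox and 143 and 156 in KI.

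Gja1 had 32.7 and 27.3 CPM in flox and 13.0 and 14.2 in KI at day 16, 2.20-fold lower (log2 difference -1.14 ± 0.10, adjusted p = 4.6e-06, edgeR). Aqp4 had 0.509 and 0.475 CPM in flox (29 and 19 reads) and 0.183 and 0.227 in KI (9 and 12 reads). Its libraries did not overlap (-1.25 ± 0.37, adjusted p = 0.0143), but the call was lost in DESeq2 (-1.26, adjusted p = 0.232), without flox 1 (adjusted p = 0.0739) and without KI 27 (adjusted p = 0.065). S100b had 0.193 and 0.0750 CPM in flox and 0.102 and 0.152 in KI, and these overlap.

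Among the metabolic enzymes, Aldoc had 229 and 245 CPM in flox and 161 and 184 in KI at day 16 (log2 difference -0.46 ± 0.14, adjusted p = 0.0156, edgeR). This call was lost without flox 2 (-0.40, adjusted p = 0.102) or KI 27 (-0.36, adjusted p = 0.0929). Aldh1l1 had 73.2 and 82.1 CPM in flox and 91.8 and 107 in KI (0.36 ± 0.10, adjusted p = 0.0124). That call was lost on library totals (0.15, adjusted p = 0.236), in a fit of only the 4 libraries (0.26, adjusted p = 0.114), without flox 1 (0.28, adjusted p = 0.0598) and without KI 48 (0.25, adjusted p = 0.0982). Fabp7 had 330 and 271 CPM in flox and 333 and 439 in KI (0.36 ± 0.18, adjusted p = 0.12), and it was called only without KI 27 (0.55, adjusted p = 0.0379) among the alternatives run. Cspg4 had 5.72 and 7.38 against 8.19 and 5.02 CPM, with overlap, and its difference of 0.02 ± 0.23 turned to -0.18 on library totals.

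**Figure D2:**
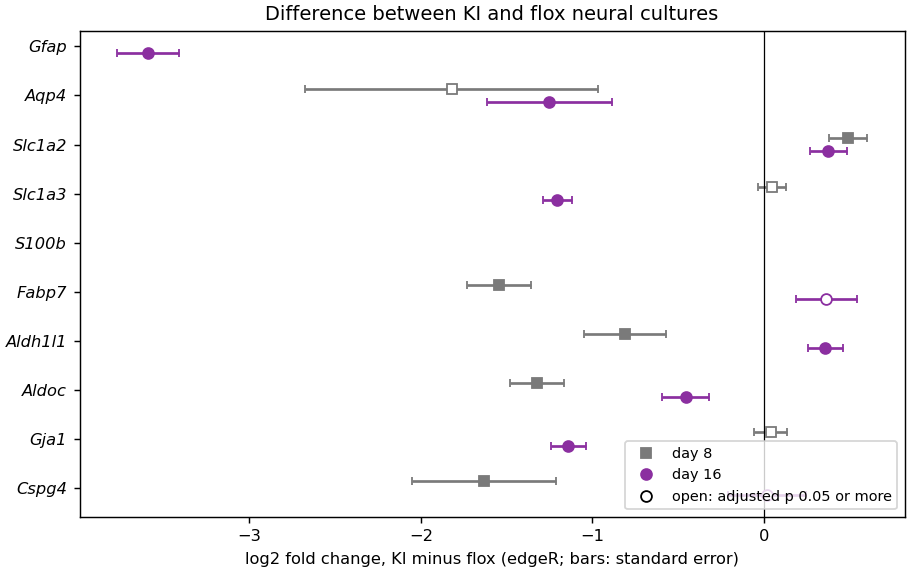
Log2 differences between KI and flox (x axis, edgeR, bars show the standard error) for each gene at day 8 (squares) and day 16 (circles), with open symbols where the adjusted p was 0.05 or more, and no point for S100b or for Gfap at day 8, where counts were too low. Gfap, Slc1a3 and Gja1 lie left of 0 at day 16 (-3.59, -1.21 and -1.14), while Fabp7 lies at -1.55 at day 8 and 0.36 at day 16 and Cspg4 at day 16 is at 0.02 with TMM scaling and at -0.18 on library totals.

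The KI difference was then compared between the days by the interaction term of the same fit. It was called for 7 of the 9 members, beside 33.2% of all genes: 4 with a more positive difference at day 16 (background 19.2%) and 3 with a more negative one (background 14.0%). On library totals 37.6% of the genes called for this term were positive, against 57.8% with TMM scaling, and the members' signs did not change. Gja1 (-1.18 ± 0.14, adjusted p = 8.04e-05, edgeR) and Slc1a3 (-1.25 ± 0.12, adjusted p = 1.53e-05) were near flox at day 8 and under it at day 16. Fabp7 (1.91 ± 0.26, adjusted p = 0.000325), Aldh1l1 (1.17 ± 0.26, adjusted p = 0.00467), Aldoc (0.87 ± 0.21, adjusted p = 0.00759) and Cspg4 (1.65 ± 0.48, adjusted p = 0.0203) were lowest relative to flox at day 8. The Gfap term (-5.41, adjusted p = 0.00546) rests on day 8 counts of 0 to 3 reads and is no measure of size, and it was not called without the day 8 library of KI 48 (-4.56, adjusted p = 0.139). Cspg4 was not called without flox 1 of day 8 (1.45, adjusted p = 0.0623), flox 1 of day 16 (1.47, adjusted p = 0.0562), KI 27 of day 8 (1.98, adjusted p = 0.0514) or KI 48 of day 8 (1.35, adjusted p = 0.136). Slc1a2 (-0.12 ± 0.15) and Aqp4 (0.57 ± 0.88) were not called.

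Other genes of the glial programme were counted from lists. Of 29 gliogenic regulators tested, 2 were higher and 18 lower in KI at day 16 (median log2 difference -0.64), against 4 higher and 7 lower at day 8 (median -0.07). The background to read all list counts here against was 27.1% of all genes higher with 19.7% lower in the older cultures, and 6.30% with 13.2% in those of day 8. The nuclear factor I genes Nfia (59.5 and 52.1 CPM in flox, 29.7 and 25.8 in KI), Nfib (124 and 96.7 against 60.3 and 51.9) and Nfix (83.1 and 101 against 35.4 and 30.2) were all lower at day 16, without overlap. At day 8 Nfib was instead higher in KI, with 39.0 and 38.1 CPM in flox and 121 and 115 in KI. Stat3, the transducer of LIF family signals, had 110 and 115 CPM in flox and 73.0 and 71.7 in KI at day 16, and Il6st, the shared receptor chain gp130, 130 and 131 against 74.2 and 71.0. Lifr, the LIF receptor, was not called at day 16 (28.2 and 23.5 against 28.2 and 27.2 CPM). Id1 (23.6 and 33.5 CPM in flox, 4.32 and 3.28 in KI) and Id3 (62.1 and 86.2 against 9.37 and 6.25), targets of BMP signalling, had the largest differences of the list, and Jak1 (166 and 149 against 209 and 218 CPM) and Jak2 (51.5 and 42.3 against 55.0 and 58.9) were the 2 that were higher.

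Of 16 genes of radial glia and neural progenitors 3 were higher and 7 lower at day 16 (median -0.24), and 6 higher and 3 lower at day 8 (median 0.08). Pax6 was not called at either day. Sox9, which is needed for gliogenesis, was lower at both (95.5 and 92.2 CPM in flox, 62.8 and 55.7 in KI at day 8). Hes5, a Notch target, was lower at day 8 (102 and 104 against 42.5 and 36.4 CPM), while Hes1, another Notch target, was higher at day 8 (60.5 and 62.5 against 127 and 139) and lower at day 16 (28.6 and 29.1 against 14.0 and 10.6). Ptprz1, a receptor phosphatase of radial glia, was lower at day 8 (11.9 and 11.3 CPM in flox, 6.57 and 5.65 in KI) and higher at day 16 (33.7 and 30.2 against 79.8 and 81.9).

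Of the 19 other astrocyte genes tested, 6 were higher and 8 lower at day 16 (median -0.19), beside 27.1% and 19.7% of all genes. At day 8, 3 were higher and 9 lower (median -0.30), beside 6.30% and 13.2%. At day 16 Sparcl1, a secreted synaptogenic protein, had 178 and 171 CPM in flox and 66.1 and 65.6 in KI, and Htra1, a secreted protease, 12.3 and 12.7 against 1.39 and 1.02. Kcnj10, the potassium channel Kir4.1, was higher in KI at low level at day 16 (0.334 and 0.325 against 1.24 and 1.86 CPM). The reactive astrocyte list was lower throughout: 15 of 15 tested, with a median of -2.40, against 3 of 15 lower and 0 higher at day 8. In it C3, complement component 3, had 75.4 and 80.1 CPM in flox and 0.407 and 0.360 in KI. Several of its genes (C3, Timp1, Cd44 and Serping1 among them) are also expressed by fibroblasts.

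Markers of other cells moved with these differences. At day 16, 12 of 12 neuronal genes were higher in KI (median 0.73), with a summed level of 5060 to 5290 CPM in flox and 8550 to 9410 in KI. All 12 fibroblast and mesenchyme genes were lower (median -1.56), with sums of 4640 to 4870 CPM in flox and 1270 to 1570 in KI. All 9 mesothelial genes tested were lower as well (median -4.33), with sums of 110 to 114 CPM in flox and 7.39 to 11.0 in KI, where Msln had at most 3 reads. Pericyte and smooth muscle genes were lower for 7 of 12 and higher for 1, with sums of 221 to 252 CPM in flox and 105 to 122 in KI. Pdgfrb, a defining pericyte gene, had 64.6 and 72.5 CPM in flox and 14.1 and 11.4 in KI. Oligodendrocyte lineage genes were higher for 5 and lower for 2 of 13 tested, beside 27.1% and 19.7% of all genes. Their sum was nevertheless lower, 172 to 173 CPM in flox and 99.5 to 103 in KI, with Myrf at 63.0 and 66.9 against 1.20 and 1.48 CPM and Pdgfra, which fibroblasts also express, at 41.4 and 36.0 against 14.4 and 9.97. Sox10, which defines that lineage, had at most 0.200 CPM in every day 16 library. Of 12 microglia and macrophage genes 8 had at most 3 reads in each flox library at day 16 and 7 in each KI library. The sum of that list was 48.8 to 55.8 CPM in flox and 5.06 to 6.42 in KI, nearly all of it Tmem119 (48.4 and 55.4 against 5.83 and 4.64 CPM), the 1 gene of the list that was tested, and it was lower (-3.31). The endothelial sum was 43.5 to 46.3 CPM in flox and 3.17 to 6.95 in KI at day 16, most of it Kdr in flox (43.5 and 41.9 against 2.24 and 0.986 CPM), and of 8 endothelial genes 2 were higher and 1 lower. Cell cycle genes were lower for 8 of 10 (sums of 296 to 303 CPM in flox, 214 to 221 in KI), and extraembryonic endoderm genes lower for 6 and higher for 1 of 11 (387 to 413 against 167 to 233). Neural crest and Schwann cell genes were higher for 4 and lower for 2 of 11 (626 to 642 against 1090 to 1230). Ependymal genes were higher for 2 of 4 (5.43 to 5.65 against 12.7 to 14.0). Pluripotency genes were lower for 3 of 7 tested (42.7 to 44.7 against 20.0 to 27.5). Of the 10 on that list, 7 had at most 3 reads in each flox library, Pou5f1 and Nanog among them, and 5 in each KI library. Bulk RNA cannot tell fewer cells of a type from less RNA per cell, and the part of these other cell types in the day 16 differences of Gfap, Slc1a3 and Gja1 was not tested.

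Other lists moved at day 8 too, where Fabp7, Aldoc and Cspg4 were lower in KI. Neuronal genes were lower for 10 of 12 (median -0.74), with sums of 2160 CPM in both flox libraries and 1350 to 1540 in KI. Endothelial genes were lower for 8 of 8 (median -2.48), with sums of 127 to 129 CPM in flox and 26.6 to 32.1 in KI. Fibroblast genes were lower for 6 of 12 and higher for 0 (sums of 513 to 520 CPM against 277 to 353), and mesothelial genes lower for 4 of 9 and higher for 0 (238 to 241 against 149 to 179). Extraembryonic endoderm genes were lower for 7 and higher for 1 of 11 (474 to 477 against 336 to 338), neural crest and Schwann cell genes lower for 3 and higher for 1 of 11 (247 to 248 against 156 to 214), and cell cycle genes higher for 4 of 10 (2740 to 2760 against 3350 to 3480). Pericyte and smooth muscle genes were lower for 5 of 12 and higher for 1, although their sum was not lower (331 to 333 CPM in flox, 343 to 368 in KI). Pdgfrb had 39.0 CPM in both flox libraries and 9.63 and 5.67 in KI, and Rgs5, another pericyte gene, 0.747 and 0.761 against 0.155 and 0.0599. Oligodendrocyte lineage genes were higher for 4 and lower for 2 of 13 tested, with sums of 164 to 167 CPM in flox and 69.0 to 84.7 in KI. The lower sum rests on Myrf (109 and 108 CPM in flox, 30.5 and 21.2 in KI) and Pdgfra (23.2 and 23.4 against 7.08 and 5.71). Among the higher genes were the transcription factors Olig1 (0.769 and 0.780 against 3.02 and 2.08 CPM) and Olig2 (0.857 and 0.873 against 3.99 and 3.59), and Sox10 had at most 0.418 CPM. The part of these cells in the day 8 differences of Fabp7, Aldoc and Cspg4 was not tested.

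**Figure D3:**
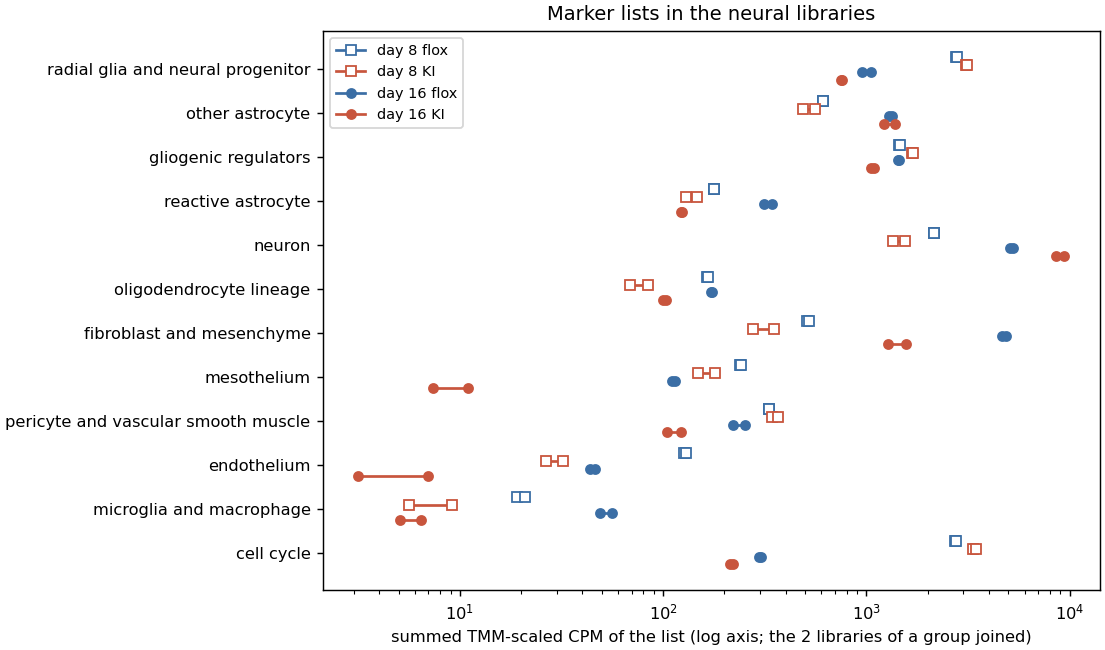
Summed TMM-scaled CPM (log axis) of 12 marker lists, with the 2 libraries of each neural group joined by a line (open symbols day 8, filled symbols day 16). At day 16 the neuron list is higher in KI (8550 to 9410 against 5060 to 5290 CPM) and the fibroblast list lower (1270 to 1570 against 4640 to 4870).

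Outside the neural protocol Gfap stayed at or under 0.583 CPM in all 29 other libraries, and S100b at or under 0.408. Aqp4 had 18 to 36 reads in each of the 6 control embryos and reached its highest level there (0.770 to 1.40 CPM at E8.5 and 0.781 to 1.30 at E9.5), above its 0.475 and 0.509 CPM in flox neural cultures of day 16. Gja1 had another pattern. It was highest in EBs of day 4 (370 CPM in flox, 397 and 413 in KI) and in ExEn flox cultures (386 and 383), and lowest in neural cultures of day 16. Across the 18 group means of log2(CPM + 0.5), Gja1 had a Pearson correlation of -0.84 with Aldoc and -0.72 with Slc1a2, and Slc1a2 had one of 0.92 with Fabp7. These are descriptions over 18 groups that share cell lines and were scaled in 4 separate sets.

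**Figure D4:**
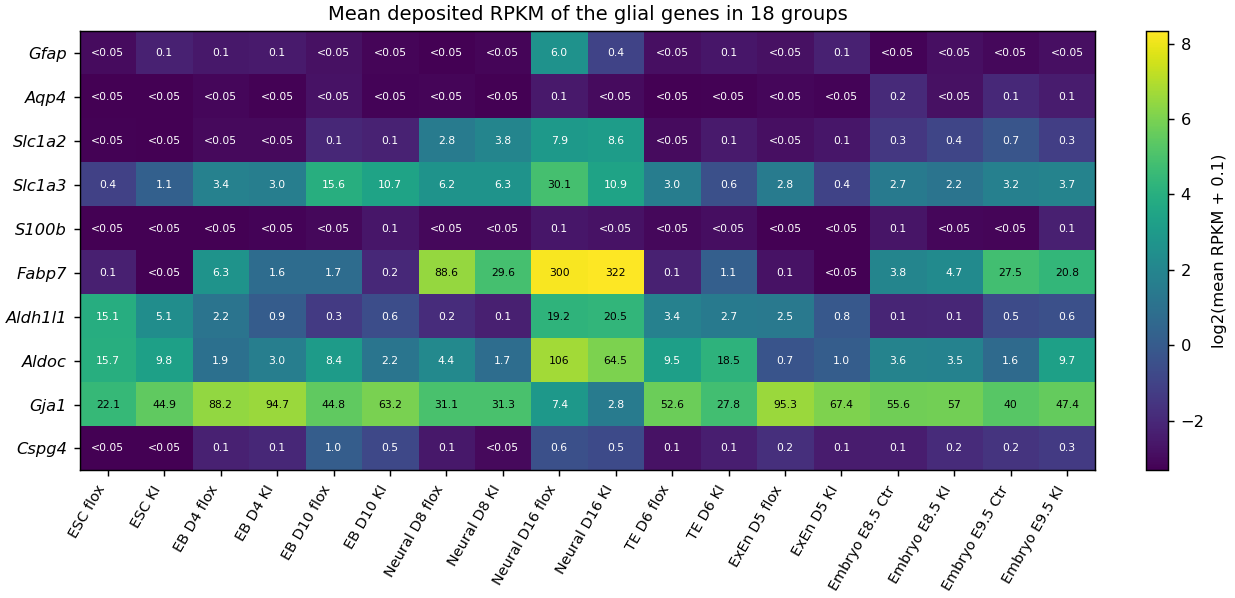
Mean deposited RPKM of each gene (rows) in each of the 18 groups (columns), coloured by log2(mean RPKM + 0.1), with the mean written in each cell. Fabp7 and Aldoc peak at neural day 16 (300 and 106 in flox), and Gja1 is lowest there (7.36 in flox and 2.79 in KI).

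The TE comparison called 4 of the 7 members tested, 2 higher (background 26.7%) and 2 lower (background 24.2%), beside 50.9% of all genes. Slc1a3 had 16.6 and 15.6 CPM in flox and 2.07 and 4.62 in KI, 4.79-fold lower (log2 difference -2.26 ± 0.28, adjusted p = 2.48e-05, edgeR). With 1 library left out its log2 difference lay between -2.97 and -1.81. Gja1 had 216 and 206 CPM in flox and 96.0 and 123 in KI (-0.94 ± 0.09, adjusted p = 1.66e-05). Aldoc went the other way, with 21.1 and 20.8 CPM in flox and 40.1 and 39.8 in KI (0.93 ± 0.14, adjusted p = 7.13e-05). None of these 3 overlapped between the groups, and the share of all genes without overlap was not counted. Fabp7 was higher at a low level (0 and 6 reads in flox, 14 and 44 in KI, adjusted p = 0.026). It was not called in DESeq2 (adjusted p = 0.0759), without flox 1 (0.172) or without KI 48 (0.24). Slc1a2 (1.51 ± 0.62, adjusted p = 0.0545) was called without flox 2 (2.27, adjusted p = 0.0485) and on the sum over transcripts (1.62, adjusted p = 0.0127). Aldh1l1 was called without KI 48 (-0.54, adjusted p = 0.0347) and Cspg4 without KI 27 (1.63, adjusted p = 0.0337), and its difference turned to -0.85 without KI 48. In the TE cultures 9 of 10 pluripotency genes were lower in KI (sums of 1500 to 1510 CPM in flox, 548 to 731 in KI), and fibroblast genes summed to 469 to 476 CPM in flox and 152 to 224 in KI. Their part in the differences of the members was not tested.

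In ExEn cultures 3 of the 7 members tested were called, all 3 lower in KI (background 17.4% lower, 18.1% higher and 35.5% in all). Slc1a3 had 16.8 and 13.4 CPM in flox and 2.17 and 2.26 in KI, 6.83-fold lower (log2 difference -2.77 ± 0.31, adjusted p = 2.07e-05, edgeR). Aldh1l1 had 9.90 and 10.0 CPM in flox and 3.25 and 3.28 in KI (-1.61 ± 0.20, adjusted p = 2e-05). Gja1 had 386 and 383 CPM in flox and 262 and 270 in KI (-0.53 ± 0.09, adjusted p = 0.00139). The KI clones are the same 2 as in the neural and TE comparisons. The markers of the ExEn cultures moved as well: all 12 extraembryonic endoderm genes were lower in KI (median -3.11), with sums of 5430 to 5520 CPM in flox and 2600 to 2760 in KI. Fibroblast genes, 6 lower and 2 higher of 11 tested, summed to 2980 to 3080 CPM in flox and 651 to 964 in KI. The part of these cells in the differences of Slc1a3, Aldh1l1 and Gja1 was not tested. Aldoc was called without flox 2 (0.89, adjusted p = 0.0425) and Cspg4 in a fit of only the 4 libraries (-1.28, adjusted p = 0.0361).

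In the ESC and EB course flox had 1 library per day, so genotype was tested over the 3 days together. None of the 8 members tested was called by edgeR, beside 0.730% of all genes. Unadjusted, 2 of them had a p under 0.05 (Fabp7 and Gja1), a limit at which the share of all genes was not counted. DESeq2 called those 2: Fabp7 (-2.85, adjusted p = 0.0223) and Gja1 (0.49, adjusted p = 0.0345), with 778 of all genes called against 121 in edgeR. Without the flox library of day 10, edgeR called Aldh1l1 (-1.43, adjusted p = 0.0417), with 332 of all genes called. By day, with no test, a gene was counted where clone 27 and clone 48 each departed 2-fold or more from flox the same way after 0.5 CPM was added to every value, which shrinks the ratios of low genes. This held for 7.75% of genes with at least 1 CPM in ESCs, 5.73% at day 4 and 7.29% at day 10. Among the members it held in ESCs for Aldh1l1, at 73.0 CPM in flox and 24.7 and 22.1 in KI. Slc1a3 (2.52 against 7.80 and 5.53 CPM) had log2 ratios of 1.46 and 1.00 with 0.5 CPM added, and clone 48 fell just short. At EB day 4 it held for Fabp7, at 6.50 CPM in flox and 1.44 and 1.99 in KI. Aldh1l1 at that day (9.03 against 4.46 and 3.57 CPM) had log2 ratios of -0.94 and -1.23 with 0.5 CPM added, so that clone 27 missed the limit. At EB day 10 it held for Aldoc (16.8 against 3.29 and 5.49 CPM) and Fabp7 (1.48 against 0 and 0.273). Sums of other lists differed too. At EB day 4 mesothelial genes had 2110 CPM in flox and 575 to 695 in KI, and endothelial genes 222 against 35.5 to 40.5. Neural crest and Schwann cell genes were higher in KI at that day (65.6 against 107 to 120). At EB day 10 extraembryonic endoderm genes had 1800 against 4100 to 4110 CPM. Their part in the differences of Fabp7 and Aldoc was not tested. Slc1a3 rose along the course, from 2.52 CPM in flox ESCs to 19.4 at day 4 and 76.9 at day 10, with 56.4 and 48.3 in KI at day 10.

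In E8.5 embryos none of the 8 members tested was called between KI and control, beside 5.46% of all genes, and DESeq2 called 0 as well. Of these 8, 3 had an unadjusted p under 0.05: Slc1a2, Aqp4 and Cspg4. The share of all genes under that unadjusted limit was not counted. Aqp4 had 1.40, 0.770 and 1.08 CPM in control embryos and 0.361, 0.377 and 0.181 in KI embryos, without overlap (log2 difference -1.80 ± 0.63, adjusted p = 0.103, edgeR). Slc1a2 had 3.51, 5.85 and 2.88 CPM in controls and 6.04, 7.35 and 6.77 in KI (0.71 ± 0.24, adjusted p = 0.0942). The E8.5 embryos share numbers in their titles, and with that number as a replicate block Slc1a2 was called (0.76, adjusted p = 0.0338), with 1304 genes called in place of 843. It was also called without control 2 (1.06, adjusted p = 0.0123).

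Between E8.5 and E9.5 control embryos 6 of the 8 members were called, 4 higher (background 12.2%) and 2 lower (background 12.1%), beside 24.2% of all genes. Fabp7 had 2.25, 5.54 and 3.81 CPM at E8.5 and 26.9, 29.1 and 23.0 at E9.5, 6.71-fold higher (adjusted p = 2.39e-06, edgeR). Slc1a2 (1.38 ± 0.24), Aldh1l1 (1.98 ± 0.55) and Cspg4 (1.28 ± 0.35) were also higher at E9.5 on the log2 scale. Aldoc (-1.30 ± 0.34) and Gja1 (-0.55 ± 0.07) were lower. Aldh1l1 was not called without control 2 of E8.5 (1.66, adjusted p = 0.0629) or control 3 of E9.5 (1.54, adjusted p = 0.0658). On library totals 64.8% of the genes called in this comparison were higher, against 50.2% with TMM scaling, and the members' directions did not change. Neuronal genes were higher for 9 and lower for 0 of 12. Their sum was 86.4 to 103 CPM at E8.5 and 293 to 442 at E9.5. Radial glia and progenitor genes were higher for 8 and lower for 1 of 16. Extraembryonic endoderm genes were lower for 7 and higher for 0 of 12. The part of these cells in the members' changes was not tested.

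At E9.5 the KI embryos differed from controls in 3 of the 8 members, 2 higher (background 14.6%) and 1 lower (background 14.9%), beside 29.5% of all genes. Aldoc had 4.69, 1.87 and 3.42 CPM in controls and 14.9, 17.1 and 30.6 in KI embryos. All 3 KI embryos were above all 3 controls, 6.28-fold higher (log2 difference 2.65 ± 0.34, adjusted p = 0.000103, edgeR). Slc1a2 had 9.92, 11.6 and 10.5 CPM in controls and 5.06, 4.01 and 6.35 in KI, also without overlap, and was 2.08-fold lower (-1.06 ± 0.24, adjusted p = 0.00217). Gja1 had 160, 147 and 163 CPM in controls and 193, 192 and 176 in KI (0.25 ± 0.07, adjusted p = 0.0104), a small difference that was not called without control 2 (0.20, adjusted p = 0.0724) or KI 2 (0.23, adjusted p = 0.0551). Fabp7 had 26.9, 29.1 and 23.0 CPM in controls and 18.6, 20.3 and 21.6 in KI (-0.39 ± 0.22, adjusted p = 0.215). It was called in a fit of only the 6 E9.5 embryos (-0.39, adjusted p = 0.0233) and with the replicate block (-0.38, adjusted p = 0.0291). In the same embryos 10 of 12 neuronal genes and 9 of 16 radial glia and progenitor genes were lower in KI (medians -1.67 and -0.38). Other lists were higher: pericyte and smooth muscle genes for 7 of 11 with 0 lower (sums of 440 to 519 CPM in controls, 701 to 841 in KI), mesothelial genes for 4 of 8 (161 to 336 against 467 to 493) and endothelial genes for 3 of 8 (304 to 336 against 385 to 433). Fibroblast genes were higher for 3 and lower for 1 of 12, with sums of 1370 to 2190 CPM in controls and 2250 to 3030 in KI. The part of these cells in the differences of Aldoc, Slc1a2 and Gja1 was not tested.

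**Figure D5:**
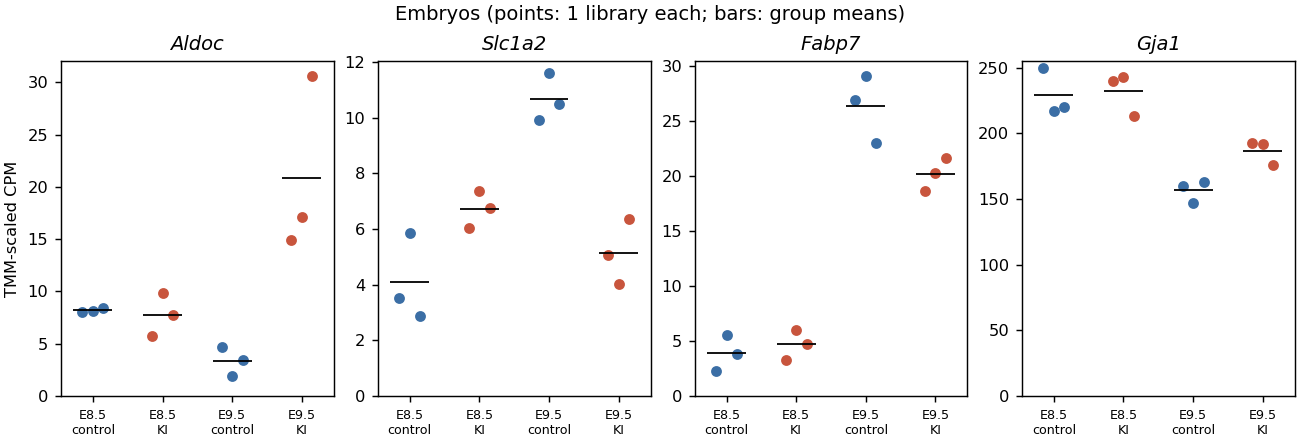
TMM-scaled CPM (y axis, from 0) of Aldoc, Slc1a2, Fabp7 and Gja1 in single embryo libraries, 3 per group, with bars at the group means. The 3 KI embryos of E9.5 have 14.9 to 30.6 CPM of Aldoc against 1.87 to 4.69 in controls, and 4.01 to 6.35 CPM of Slc1a2 against 9.92 to 11.6.

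The interaction term between stage and genotype was called for 2 of the 8 members, 1 in each direction, beside 6.63% of all genes (3.39% more positive and 3.24% more negative at E9.5). Aldoc was not called at E8.5 (8.02, 8.12 and 8.40 CPM in controls, 5.73, 9.81 and 7.72 in KI) and its interaction term was 2.73 ± 0.47 (adjusted p = 0.00447, edgeR). For Slc1a2 it was -1.77 ± 0.34 (adjusted p = 0.00342), with KI above control at E8.5 and below it at E9.5. Slc1a3 was called without KI 3 of E8.5 (0.71, adjusted p = 0.0305), and Fabp7 with the replicate block (-0.69, adjusted p = 0.0449).

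The genes whose pattern over the 18 groups was most like that of a member were found by Pearson correlation of log2(CPM + 0.5) among 15634 genes. For Gfap they were Pi15 (0.951), Slc14a2 (0.914) and Agtr2 (0.906). Gfap itself had a mean of 21.3 CPM in flox and 1.77 in KI neural cultures of day 16. It had at most 0.426 in any other group, so its correlations rest largely on the neural groups of day 16. For Slc1a3 they were Kif21b (0.938), Runx1t1 (0.907) and Slc1a4 (0.898), the last a neutral amino acid transporter of the same family. Fabp7 was closest to Trim9 (0.972), AA388235 (0.966) and Cacng4 (0.964). Aqp4, which never passed 1.40 CPM, was closest to Lmx1a (0.899), BC024139 (0.884) and Abca9 (0.881).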

How the data were processed

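Poly(A) RNA of 37 libraries was analysed, and the other 63 of the series' 100 samples were not analysed here. Among those left out was a neural day 8 RNA sample whose title reads DKO in place of flox or KI. Samples were grouped by their titles. Per the file headers, each deposited table gives a whole-number read count and an RPKM value for 29082 transcripts. The submitters' processing notes name STAR, Bowtie2, bcl2fastq, SICER 1.1 and mm9, without saying which served which data, and the counter and its use of strand are not given in the sources used here. The authors' deposited RPKM values were used only for levels per length. Symbols were found for 28436 transcripts and not for 646, and where a gene had several transcripts (3760 genes) only that with most reads in total was kept. Members and lists were chosen with earlier results of these data known. Named from other lists were fixed defining genes and, at neural days 8 and 16, at most the 2 called genes of largest difference in each direction.

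Counts were tested with edgeR 4.0.16 in R 4.3.3 (filterByExpr with a minimum of 10 reads, TMM, glmQLFit with robust estimation, glmQLFTest), in 1 fit each for the 8 neural, 8 TE and ExEn, 12 embryo and 9 ESC and EB libraries, the last with day as a factor. P-values were adjusted by Benjamini and Hochberg over all genes of a comparison, and standard errors are the absolute log2 difference over the root of its F statistic. The procedure was tested on simulated data. Alternatives were DESeq2 1.42.0, RLE factors, no filter, sums over transcripts, single libraries left out, fits of only the libraries compared, a replicate block and, added after the data were seen, library totals without scaling factors. KI libraries of different days pair by clone. E8.5 embryos with 1 title number deviated together (correlations 0.282, 0.219 and 0.102), and E9.5 embryos did so less evenly (-0.077 to 0.19). The 2 flox libraries of neural day 8 were the closest pair, with chi-square over degrees of freedom 1.5 (others 2.76 to 54.83), but differed beyond counting noise and were kept as 2 samples.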

Additional observations from a re-analysis of the deposited data

Results flagged for a closer look

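The difference between KI and flox cultures changed between neural day 8 and day 16 for 7 genes by the interaction term of edgeR's quasi-likelihood fit. It moved down on the log2 scale for Gfap (-5.41), Slc1a3 (-1.25) and Gja1 (-1.18). It moved up for Fabp7 (1.91), Cspg4 (1.65), Aldh1l1 (1.17) and Aldoc (0.87). The Gfap value rests on at most 3 reads per library at day 8. Between E8.5 and E9.5 embryos the difference between KI and control moved up for Aldoc (2.73) and down for Slc1a2 (-1.77).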

How the results depend on the processing

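The day 16 differences of Gfap, Slc1a3 and Gja1 and the day 8 differences of Fabp7 and Aldoc kept their direction and call under every alternative run. The number of members called at neural day 8 fell from 5 to between 2 and 3 when 1 library was left out, and that of all genes from 3202 to between 1896 and 2362. At E8.5 it rose from 0 to 1 with the replicate block, and lay between 0 and 1 with 1 embryo left out. In the EB course it rose from 0 to 2 in DESeq2, which called 778 of all genes against 121 in edgeR, and lay between 0 and 1 with 1 library left out (26 to 332 of all genes). The cause of these changes was not tested, beyond the fewer samples of the fits with a library left out. In the neural set the replicate block was run only for the changes between days and the interaction term, and it changed no call there. It was not run for KI against flox within day 8 or day 16. At E9.5, where the shared numbers do not pair the embryos evenly, the block added Fabp7 (-0.38, adjusted p = 0.0291). To the embryo interaction it added Fabp7 as well (-0.69, adjusted p = 0.0449). Of 1199 values of single genes under an alternative, 1121 kept direction and side of the threshold, 34 lost a call, 16 gained one and 28 changed sign. None of those 28 was called before or after. Cspg4 at neural day 16 became -0.18 on library totals and -0.08 in a fit of only the libraries compared. The other sign changes came with 1 library left out, with these ranges. Neural: Cspg4 at day 16 lay between -0.38 and 0.34, and the Slc1a2 interaction between -0.25 and 0.04. TE and ExEn: Cspg4 in TE lay between -0.85 and 1.63, and Fabp7 in ExEn between -4.34 and 0.00. At E8.5 Fabp7 lay between -0.01 and 0.61, Aldh1l1 between -0.73 and 0.45, Aldoc between -0.29 and 0.09, and Gja1 between -0.03 and 0.08. At E9.5 Aldh1l1 lay between -0.14 and 0.65, and its embryo interaction between -0.26 and 0.96. Aqp4 between control stages lay between -0.46 and 0.05. In the EB course Gfap lay between -0.45 and 0.89, Slc1a3 between -0.37 and 0.43, and Cspg4 between -0.95 and 0.46. At the depth here Gfap and S100b outside neural day 16 lay mostly near the limit of a count of 0.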
